A study of Mus musculus with 30 samples.

Results

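The regions described here are stretches of accessible chromatin that were gained when brain endothelial cells (ECs) were placed in culture. ATAC-seq uses the Tn5 transposase to cut and tag DNA that is not wrapped tightly, so that a peak of reads marks an open region. The peaks of 2 lists from acutely isolated brain ECs and of 6 lists from WT cultured brain ECs were merged wherever they overlapped by at least 1 bp, which gave 124834 merged intervals. A gained region was an interval with a peak in neither acute list and in all 6 WT lists, so that the regions were chosen by whether a peak had been called in these 8 lists. There were 10217 such regions, or 8.18% of all merged intervals, 11.9% of the 85962 intervals that no acute list held, and 35.3% of the 28948 intervals that all 6 WT lists held. The remaining merged intervals included 75745 that were gained in 1 to 5 WT lists only, 16969 shared by both acute and all 6 WT lists, and 3712 lost ones, with a peak in both acute lists and in no WT list.

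All mice were adult males. Acute ECs were GFP-positive cells sorted from brain, per the labels, of Tie2-GFP mice (the study's brain ECs combined cerebrum and cerebellum), in which the Tie2 promoter drives GFP in ECs, and gave 2 ATAC-seq and 2 RNA-seq libraries. WT cultures were grown for 8 days in all, a step of puromycin selection included, which spares brain ECs because they express the efflux pump P-glycoprotein. For both assays, WT replicates 1 and 2 came from C57BL/6J mice by papain digestion (method A), and WT replicates 3 to 6 from Ctnnb1flex3/+;Tie2-GFP mice by homogenization and collagenase/dispase (method B). The beta-catenin stabilized cultures came from Ctnnb1flex3/+;Pdgfb-CreER;Tie2-GFP mice, in which 4-hydroxytamoxifen (4HT, 100 ug at P10) lets Cre remove exon 3 of Ctnnb1 in ECs, which protects beta-catenin from degradation. The Ctnnb1flex3/+;Tie2-GFP controls carried the unrecombined allele and had received the same 4HT. Stabilized cultures gave 2 ATAC-seq libraries (method B) and 4 RNA-seq libraries (1 and 2 by method A, 3 and 4 by method B). Each culture group pools the brains of several mice, and its replicates are separate wells, 2 to an experiment. The p-values therefore measure the spread between wells and between experiments, of which the WT cultures had 3, rather than between animals. Genotype and isolation method cannot be told apart among the WT cultures, and removal of exon 3 was not visible in transcript totals.

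Background to the motifs and genes is brief. AP-1 factors are dimers of Fos and Jun family proteins that respond to growth factors, stress and adhesion, and TEAD factors bind DNA together with the coactivators YAP and TAZ, which respond to stiffness and spreading of cells. Both bind mainly at enhancers, which lie away from start sites. In brain ECs of the intact animal, Wnt ligands act through beta-catenin and TCF/LEF factors to maintain the blood-brain barrier (BBB), the tight, transporter-rich state of the vessels of the central nervous system.

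The sequences below are examples of gained regions at the summit, the base with the most reads. They were picked from 20 windows made for named genes. Of the 20, 11 held an AP-1 motif, 3 of these also a TEAD motif, and 9 held neither. The printed windows hold AP-1 more often than gained regions at large, where 32.0% held it within 50 bp of the summit. The first 5 belong to regions with some of the highest peaks, and the other 5 to regions near Ccn1 and near genes of the AP-1, YAP/TEAD and actin lists. Each is a window of 101 bases centred on the median summit of the 6 WT lists, in the mouse build GRCm38.p6. Capitals mark TGAGTCA or TGACTCA (the AP-1 motif on either strand) and GGAATG or CATTCC (the TEAD motif on either strand).
Gained region closest to Flrt3, chr2:141587449-141587549, plus strand: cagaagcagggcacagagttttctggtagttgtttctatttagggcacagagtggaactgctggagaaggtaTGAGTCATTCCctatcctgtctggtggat
Gained region near Arsj, chr3:126335461-126335561, plus strand: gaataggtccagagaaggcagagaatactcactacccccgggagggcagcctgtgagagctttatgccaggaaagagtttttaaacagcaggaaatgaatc
Gained region near Ddi1, chr9:6298724-6298824, plus strand: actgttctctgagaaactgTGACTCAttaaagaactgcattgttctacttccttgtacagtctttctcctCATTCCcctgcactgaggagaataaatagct
Gained region near Unc13c, chr9:73952484-73952584, plus strand: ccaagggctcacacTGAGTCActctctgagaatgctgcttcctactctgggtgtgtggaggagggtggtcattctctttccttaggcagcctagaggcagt
Gained region near Ier5, chr1:155040465-155040565, plus strand: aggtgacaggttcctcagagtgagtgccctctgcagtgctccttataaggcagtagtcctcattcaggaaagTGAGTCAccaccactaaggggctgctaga
Gained region near Ccn1, chr3:145632998-145633098, plus strand: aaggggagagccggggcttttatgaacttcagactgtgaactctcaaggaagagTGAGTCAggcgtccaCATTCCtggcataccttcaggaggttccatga
Gained region near Fosl2, chr5:32035891-32035991, plus strand: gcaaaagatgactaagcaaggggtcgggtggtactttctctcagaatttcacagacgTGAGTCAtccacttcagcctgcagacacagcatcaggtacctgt
Gained region near Jun, chr4:95117341-95117441, plus strand: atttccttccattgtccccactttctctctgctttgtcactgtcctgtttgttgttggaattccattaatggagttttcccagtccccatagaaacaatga
Gained region near Gadd45a, chr6:66987797-66987897, plus strand: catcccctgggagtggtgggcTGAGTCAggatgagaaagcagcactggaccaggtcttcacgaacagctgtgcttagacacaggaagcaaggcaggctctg
Gained region near Actn1, chr12:80292248-80292348, plus strand: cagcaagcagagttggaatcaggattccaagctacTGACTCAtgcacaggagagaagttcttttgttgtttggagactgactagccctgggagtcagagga
The window closest to Flrt3 lies in an intron of another gene, 916 kb from the start of Flrt3, and holds an AP-1 and a TEAD motif whose letters overlap. The windows near Ddi1 and Ccn1 also hold both motifs, apart from each other. Those near Unc13c, Ier5, Fosl2, Gadd45a and Actn1 hold an AP-1 motif alone, and those near Arsj and Jun hold neither.

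Gained regions were strong peaks in most WT cultures. Peak height is given as fold enrichment, the read density at the summit over the local background as the peak caller computed it. The median over the gained regions was 7.71 in WT 1, 6.13 in WT 2, 11.5 in WT 3, 12.5 in WT 4, 13.4 in WT 5 and 14.8 in WT 6. The quartiles ran from 4.93 to 7.97 in WT 2 and from 10.2 to 19.7 in WT 6. These lists chose the regions, so the heights are a description. Regions shared with acute ECs had medians of 8.17 to 15.0 in the same lists, and regions gained in 1 to 5 lists had medians of 4.57 to 5.89. In WT 2 the medians of gained, shared and less regularly gained regions were 6.13, 8.17 and 4.57, and in WT 6 they were 14.8, 15.0 and 5.89.

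**Figure D1:**
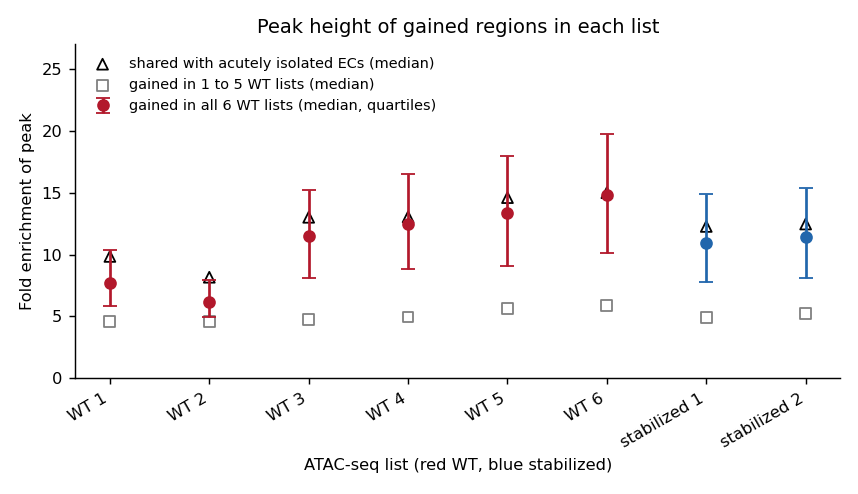
Fold enrichment of gained regions (median as a circle, quartiles as bars) in the 6 WT lists, red, and the 2 beta-catenin stabilized lists, blue, with the medians of regions shared with acute ECs (triangles) and of regions gained in 1 to 5 WT lists (squares). The circles run from 6.13 in WT 2 to 14.8 in WT 6, each below its triangle (8.17 in WT 2, 15.0 in WT 6) and above its square (4.57 in WT 2, 5.89 in WT 6).

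WT 2 set the edge of the rule. It had 33152 peaks, against 50450 in WT 1 and 84560 to 98840 in WT 3 to 6, and it held the lowest fold enrichment of 74.0% of the gained regions, followed by WT 1 with 16.4%. The lowest of the 6 values had a median of 5.81 and went down to 1.64. Just outside the rule were 10582 intervals in no acute list and 5 WT lists, of which 10010 lacked a peak only in WT 2, with a median fold enrichment of 7.40 in the other lists. A further 1762 intervals had a peak in all 6 WT lists and in 1 acute list, with a median fold enrichment of 3.67 in that acute list and 10.2 in the WT lists. The acute lists held 37453 and 31844 peaks. Absence from them means that no peak was called, and the part that depth plays in the gains was not tested, since the read depth of the ATAC-seq libraries is unknown.

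Peaks of the 6 lists lay on top of each other within a gained region. A single peak was present in every WT list at 90.1% of the regions, and the 6 summits were at most 100 bp apart at 78.8%, with a median range of 53 bp. The median width of a gained region was 626 bp (quartiles 501 and 775), against 958 bp for shared regions. Across the regions, heights of pairs of lists (log2 scale) correlated with Pearson's r of 0.812 to 0.956 for wells of the same experiment, 0.769 to 0.887 for different experiments by the same method and 0.553 to 0.746 across methods. These are correlations over regions, which share libraries and are not independent replicates.

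The stabilized cultures, which the rule did not use, had a peak at nearly all gained regions. Both stabilized lists held 10120 of the 10217 regions, or 99.1% (Wilson 95% interval 98.8 to 99.2, counting error only), 69 regions were in 1 list and 28 in none. For regions gained in 1, 2, 3, 4 and 5 WT lists the share in both stabilized lists was 2.15%, 12.4%, 31.8%, 72.5% and 93.8%. Shared regions were in both lists at 99.9%, and lost regions at 0.539%. Median fold enrichment of the gained regions was 10.9 and 11.4 in the stabilized lists, within the range of the WT lists.

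**Figure D2:**
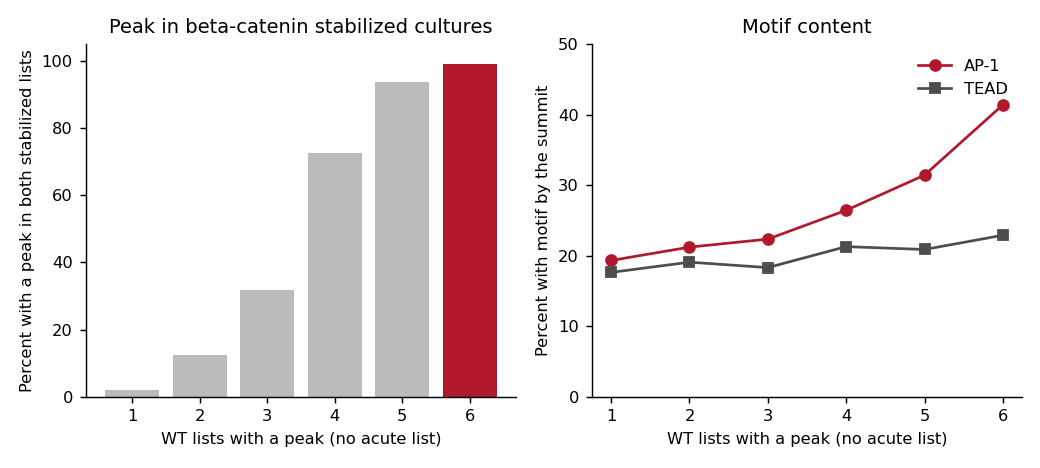
Left, percent of intervals in no acute list that had a peak in both stabilized lists, by the number of WT lists with a peak (bars, red for the gained regions described here). Right, percent with an AP-1 or TEAD motif within 100 bp of the summit for the same groups. The bars climb from 2.15% to 99.1%, AP-1 from 19.3% to 41.4% and TEAD from 17.6% to 22.9%.

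Peak heights were then compared between the 2 stabilized lists and the 4 WT lists of the same isolation method (WT 3 to 6), with limma on log2 fold enrichment centred to the median of each list, over 59167 intervals with a peak in all 6 of these lists. The 2 stabilized lists were wells of 1 experiment, so the p-values hold no spread between stabilized experiments. Over all intervals, 0.00338% were called higher and 0.00169% lower at an adjusted p under 0.05. Of 10120 gained regions tested, limma called 0 higher and 1 lower, while 1354 had an unadjusted p under 0.05, against 6248 of all 59167 intervals. The median log2 difference of the gained regions was 0.10 (quartiles -0.03 and 0.21, median SE 0.153), against 0.08 over all intervals, and 13 regions (0.128%) differed by more than 2-fold. The sign of these medians depended on the scaling. Without centring they were -0.16 and -0.18, and with quantile normalization 0.04 and 0.02. On simulated data of this size, 85.5% of 200 changes of 4-fold were recovered. The called region lies in an intron 62.65 kb from the start of Pik3c3, a lipid kinase of endosomes and autophagy. Its fold enrichment was 15.5, 15.4, 15.8 and 17.99 in WT 3 to 6 and 5.03 and 5.08 in the stabilized lists, so that the groups did not overlap (log2 difference -1.41, SE 0.126, limma adjusted p = 0.0390). Leaving out any 1 of the 6 lists ended this call, with an adjusted p of 0.102 to 0.738 and a log2 difference of -1.37 to -1.43.

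Gained regions lay away from start sites. Of the 10217, 682 (6.68%, Wilson 95% interval 6.21 to 7.18) had their summit within 1 kb of a start site, 51.5% were in introns, 38.1% were intergenic, 1.31% in UTRs, 1.04% in coding exons and 1.36% in noncoding exons. Shared regions were at promoters in 61.3% of cases, and lost regions in 4.85%. The median distance from the summit of a gained region to the nearest protein-coding start was 30772 bp, against 197 bp for shared and 32358.5 bp for lost regions. The nearest interval with an acute peak was a median of 17385.5 bp away, with 35.5% of gained regions closer than 10 kb to one. The nearest other gained region was a median of 42782 bp away, with 18.7% closer than 10 kb. In place in the genome, gained regions resembled lost regions and differed from shared ones, and regions are not replicates, so these shares are a description.

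The AP-1 motif was the commonest feature of the sequence. Within 100 bp of the summit, 41.4% of the 10212 gained regions on placed chromosomes held TGAGTCA on either strand (Wilson 95% interval 40.4 to 42.3). Windows of the same 201 bases held it in 3.57% and 3.88% of cases at 1 kb to either side of these summits, in 2.69% of all protein-coding start sites, in 18.4% of shared regions outside promoters and in 2.07% of lost regions. Among gained regions outside promoters it was present in 42.4%, and at promoters in 26.4%. Of all 8192 pairs of a 7-letter word and its reverse complement, TGACTCA with TGAGTCA ranked first by excess of gained regions over their flanks. The share was 19.3%, 21.2%, 22.3%, 26.4%, 31.4% and 41.4% in intervals gained in 1, 2, 3, 4, 5 and 6 WT lists, and within the gained regions 28.5% in the 10% of regions with the lowest fold enrichment and 56.6% in the highest 10%. Regions with 0, 1, 2 and 3 or more AP-1 motifs (5987, 3522, 628 and 75 regions) had a median fold enrichment of 10.5, 12.1, 14.0 and 17.4.

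The TEAD motif GGAATG was present in 22.9% of gained regions (Wilson 95% interval 22.1 to 23.7), against 11.0% and 10.7% of the flanks, 7.77% of all start sites, 15.2% of shared regions outside promoters and 10.5% of lost regions. Its share went from 18.7% in the 10% of regions with the lowest fold enrichment to 27.3% in the highest 10%. Both motifs occurred together in 866 regions (8.48%), AP-1 alone in 3359 (32.9%), TEAD alone in 1472 (14.4%) and neither in 4515 (44.2%). The median fold enrichment of these groups was 13.2, 12.3, 11.5 and 10.2. Matches piled up at the summit itself. AP-1 matches numbered 4.40 per kb at the summit and 0.217 per kb 400 to 500 bp away (ratio 20.3), and TEAD matches 1.82 and 0.602 per kb (ratio 3.02). In shared regions outside promoters, AP-1 matches numbered 1.68 per kb at the summit and 0.179 per kb at that distance (ratio 9.35).

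**Figure D3:**
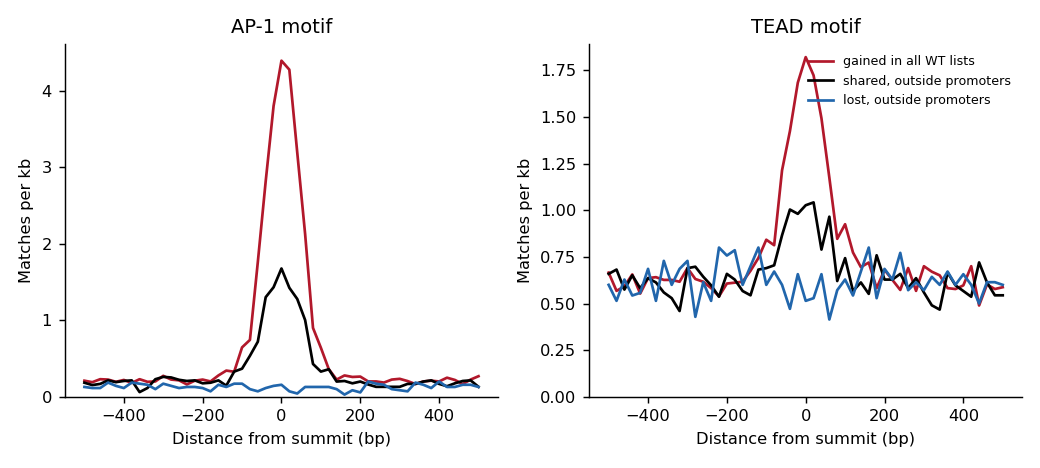
Matches per kb to the AP-1 motif (left) and the TEAD motif (right) by distance from the summit in bins of 20 bp, for gained regions (red), regions shared with acute ECs outside promoters (black) and lost regions outside promoters (blue). The red lines peak at 4.40 per kb for AP-1 and 1.82 per kb for TEAD at the summit, and the blue lines have no such peak, with 0.157 and 0.514 per kb there.

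The other motifs searched, on both strands, were rarer as spelled here. The motifs differ in length, and longer ones match less often, so their shares do not rank them. An ETS motif, CAGGAAGT, the kind bound by Erg and Ets1 of ECs, occurred in 7.88% of gained regions, 1.51% and 1.53% of flanks and 8.28% of shared regions outside promoters. The 7-letter word CAGGAAG within it had rank 3 by excess of gained regions over flanks. It was in 23.2% of gained regions, 7.80% of flanks and 25.8% of shared regions outside promoters. NF-kB matches occurred in 0.313% of gained regions and 0.0490% of either flank. The TCF/LEF motif CTTTGATC was in 0.362% of gained regions, below the 0.783% and 0.891% of their flanks, and in 4.95% of lost regions. Its shorter form CTTTGAA was in 3.41% of gained and 14.2% of lost regions. The SP motif GGGGCGGGG of housekeeping promoters was in 0.823% of gained and 13.6% of shared regions, and the CTCF motif in 0.206% of gained regions. The letters TTGGCA of an NFI site occurred in 15.0% of gained regions and 10.3% and 9.78% of flanks, and CAGCAGG of ZIC factors in 11.2%, 5.28% and 5.02%. Lost regions held them in 15.2% and 12.15% of cases, and shared regions outside promoters in 14.3% and 13.8%. Shares of gained regions were 4.91% for the RUNX motif TGTGGTT, 4.84% for the SOX motif ACAATGG, 4.55% for the FOX motif TGTTTAC, 2.82% for the E-box CACGTG, 2.57% for the GATA motif AGATAAG and 1.57% for the KLF motif GGGTGTGG. They were 1.53% for the SRF motif, 0.558% for the CRE motif TGACGTCA, 0.548% for the longer ETS motif CCGGAAGT and 0.0294% for the full NFI motif. In the upstream and downstream flanks, RUNX had 4.83% and 4.83%, SOX 2.77% and 3.13%, and FOX 2.82% and 2.95%. The E-box had 2.51% and 2.76% there, GATA 2.73% and 2.87%, and KLF 1.48% and 1.58%. The windows were 49.4% G or C in gained regions, 61.2% in shared regions and 44.6% and 44.7% in the flanks, and the part of base composition in these shares was not tested. A match of letters is not a bound factor. In the comparison of stabilized with WT lists, the median log2 difference was 0.10 in gained regions with an AP-1 motif and 0.11 without, 0.12 with a TEAD motif and 0.10 without, and 0.12 in the 36 regions with a TCF/LEF motif and 0.10 without.

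Transcripts were compared for the genes near gained regions. Each region was given to the protein-coding gene with the nearest start, up to 100 kb away, which placed 8141 regions (79.7%) at 5269 genes, 3536 with 1 region, 1733 with 2 or more and 12 at most. A gene was called with edgeR at an adjusted p under 0.05, more than 2-fold, and at least 5 TPM in every library of the higher group. Over all 13798 genes tested, 13.5% were called higher in WT cultures than in acute ECs and 10.2% lower, with a median log2 fold change of 0.10. Of the 4178 genes with gained regions that were tested, 575 (13.8%) rose and 505 (12.1%) fell, with a median of 0.12. A gained region within 100 kb, taken alone, therefore went with shares near those of all genes. The other 1091 genes with gained regions had too few counts to be tested.

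The gene's other regions and the distance of the gained region went with larger differences. Of genes whose nearest gained region was under 1 kb from the start (374 genes), 15.0% rose and 5.08% fell, with a median log2 fold change of 1.20. At 1 to 10 kb (1312 genes) the median was 0.29, at 10 to 30 kb (1413 genes) -0.06, and at 30 to 100 kb (1079 genes) -0.18. A lost region within 100 kb was present at 19.6% of tested genes with gained regions and at 7.15% of tested genes without. Among genes with no lost region, 13.8%, 14.0%, 16.3%, 19.7% and 22.7% rose with 0, 1, 2, 3 to 4 and 5 or more gained regions. In the same order 8.07%, 8.38%, 7.63%, 7.30% and 12.1% fell, and the median log2 fold change was 0.17, 0.28, 0.29, 0.50 and 0.57. Among genes with at least 1 lost region, 7.85%, 8.29%, 4.85%, 10.6% and 6.38% rose, 26.7%, 27.6%, 29.1%, 27.3% and 29.8% fell, and all medians were negative, from -1.04 to -0.68. Genes whose gained regions held an AP-1 motif (2193) rose in 13.5% and fell in 12.2% of cases, and those without (1985) in 14.0% and 11.9%. These groupings were formed after earlier results of these data were known, and they are described rather than tested, since genes are not replicates.

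**Figure D4:**
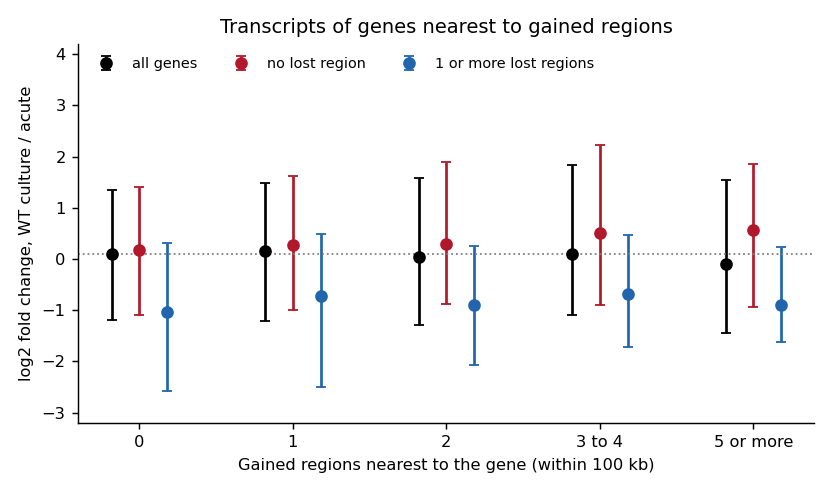
Median log2 fold change of transcripts between WT cultures and acute ECs, with quartiles as bars, for genes with 0, 1, 2, 3 to 4 and 5 or more gained regions nearest to them within 100 kb, over all genes (black), genes with no lost region (red) and genes with 1 or more (blue). The red medians run from 0.17 to 0.57, the blue ones from -1.04 to -0.68, and the dotted line is the median of all genes tested, 0.10.

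Marker transcripts of some cells other than ECs were at different levels in the acute and cultured libraries, which may bear on the transcript comparisons. The summed TPM of the 6 endothelial markers was 1583 to 2532 in acute ECs and 1194 to 2820 in WT cultures, with all 6 markers present in both. The 6 pericyte markers summed to 506 to 526 in acute ECs and 4.19 to 10.2 in WT cultures, the 4 oligodendrocyte markers to 28.3 to 30.5 and at most 1.27, and the 3 erythrocyte markers to 4751 to 31511 and at most 1.39. The 4 smooth muscle markers summed to 118 to 142 and 163 to 1001. The actin gene Acta2 led in culture, with a mean of 103 TPM in acute ECs and 566 in WT cultures. Cnn1 also had a higher mean in culture (2.74 and 44.7 TPM). Des had similar means (2.15 and 2.18 TPM), and Myh11, a smooth muscle myosin, had a lower one in culture (22.3 and 1.68 TPM). In bulk samples, fewer cells of a type and less RNA per cell cannot be told apart, and the part of other cells in the results was not tested. RNA-seq depth was 24284843 to 94686456 assigned reads or fragments per library in these groups. Acute libraries were single-end reads of 75 cycles and cultures paired-end reads of 36 cycles, or 150 cycles for WT 3 and 4, so that read type and culture cannot be told apart. Values for single genes below are CPM, counts divided by the TMM-scaled library size, which compare libraries and not genes of different length.

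Most of the genes with the most gained regions, all but Palld and Pde4d, had a negative log2 fold change in WT cultures, though few were called. Foxp1, a forkhead repressor expressed in ECs, had 12 gained regions, all in introns, with median fold enrichments over the WT lists of 4.10 to 20.3, and 4 lost regions. Its CPM was 264 and 371 in acute ECs and 73.2 to 142 (median 86.6) in WT cultures, without overlap, and it fell (log2 fold change -1.62, SE 0.339, edgeR adjusted p = 0.00503). Psd3, a regulator of Arf GTPases, had 8 gained regions and fell (-3.45, adjusted p = 0.00298), from 64.3 and 100 CPM to 1.63 to 12.5. Palld, which encodes the actin-bundling protein palladin, had 7 gained regions and rose (3.43, adjusted p = 0.0405), from 27.8 and 17.9 CPM to 33.9 and 35.9 in WT 1 and 2 (method A) and 252 to 550 in WT 3 to 6 (method B). That call was lost without either acute library or without any of WT 3 to 6 (log2 fold changes of 2.96 to 3.76, adjusted p-values of 0.0520 to 0.191), and with the 36-cycle WT libraries alone (3.35, adjusted p = 0.0824). Foxp1 kept its direction but missed the threshold with the wells of an experiment summed (adjusted p = 0.0512).

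The other 9 of these 12 genes did not pass the test. Dst, which encodes the cytolinker dystonin, had 10 gained regions and spread widely in culture, from 12.7 CPM in WT 4 to 928 in WT 2, on either side of the 719 and 722 CPM of acute ECs. Erg, an ETS factor that maintains endothelial identity, had 8 gained regions, 1 of them at a start site with a fold enrichment of 5.51 to 14.0. Its CPM was 694 and 741 in acute ECs and 323, 299, 27.5, 23.7, 211 and 270 in WT 1 to 6 (log2 fold change -1.86, adjusted p = 0.108). WT 3 and 4, the libraries of 150 cycles prepared by the outside company, were the lowest for Dst and Erg and for Dlc1 (8 gained regions, -2.28, adjusted p = 0.0842). With the 36-cycle WT libraries alone, Erg (-1.34, adjusted p = 0.00527) and Dlc1 (-1.73, adjusted p = 0.00236) were lower at the threshold. Pde4d, Daam1, Sipa1l1, Pik3r1, Rapgef5 and Stard13 had log2 fold changes of 0.50, -0.38, -0.53, -1.38, -0.50 and -0.90. With an offset for the length of the transcripts in each library, Sipa1l1 (-1.25, adjusted p = 0.0192), Pik3r1 (-2.10, 0.00629) and Stard13 (-3.53, 0.00107) fell. Pik3r1 also passed with DESeq2 (-1.48, adjusted p = 0.0232) and with the 36-cycle WT libraries alone (-1.01, adjusted p = 0.0176).

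**Figure D5:**
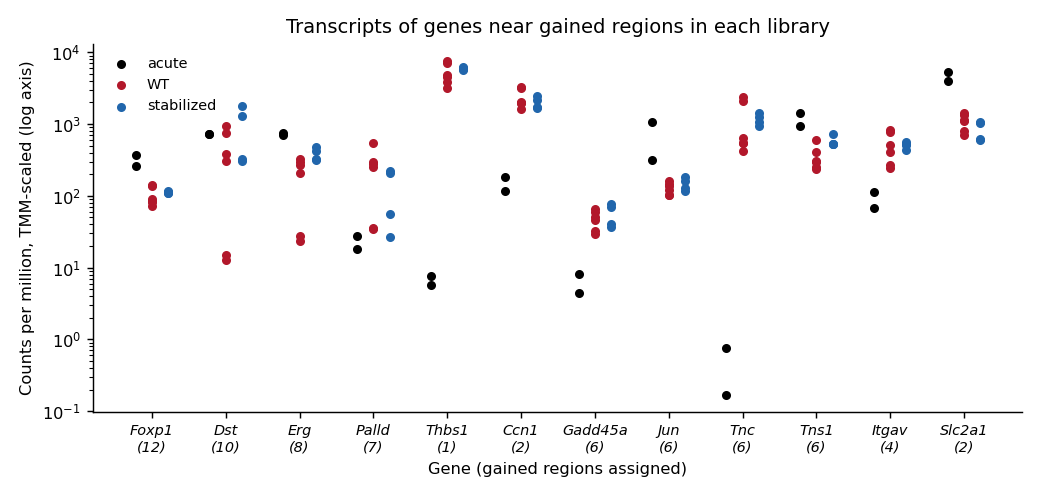
TMM-scaled CPM on a log axis for 12 genes near gained regions, 1 point per library, in acute ECs (black), WT cultures (red) and beta-catenin stabilized cultures (blue), with the number of gained regions in brackets. Foxp1, Jun, Tns1 and Slc2a1 sit lower in WT cultures than in acute ECs, Thbs1, Ccn1, Gadd45a, Tnc and Itgav sit higher, and the 2 lowest WT points of Dst and Erg are WT 3 and 4.

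Transcripts nearest to the strongest gained regions varied. The 10 highest median fold enrichments lay at 9 genes. The highest, 28.8, belonged to the region closest to Flrt3 shown above, with 26.6 and 21.8 in WT 1 and 2, 28.3 to 31.5 in WT 3 to 6, and 28.8 and 29.2 in the stabilized lists. Flrt3, an adhesion protein, had a CPM of 0.539 and 2.72 in acute ECs and 0.659 to 1.82 in WT cultures. Arsj, a sulfatase gene, had 4 gained regions, 3 with median fold enrichments of 27.8, 21.4 and 19.6 and 1 at its start site with 7.97. It was at 0 in both acute libraries and at 1.61 to 4.13 CPM in all 6 WT libraries, and its TPM stayed below the minimum of 5. Cftr, the chloride channel gene, lay 100 kb from a region with a fold enrichment of 26.7, and was at 0 in both acute libraries and at 5.10 to 15.9 CPM in WT cultures. Unc13c was at 15.5 and 8.47 CPM in acute ECs and at most 0.476 in WT cultures, and Ddi1 was near 0 throughout. Vcan, Ier5, Tasp1 and Rpap3 had log2 fold changes of 1.42, 0.15, -0.33 and 0.64, none past the threshold.

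Thbs1 and Ccn1, both secreted matricellular proteins and Ccn1 a classical target of YAP, rose in culture. Thbs1 had 1 gained region, chr2:118110185-118110996, with its summit 1.08 kb upstream of the start. The fold enrichment of this region was 7.61 and 6.10 in WT 1 and 2, 8.41 to 9.95 in WT 3 to 6, and 9.22 and 9.87 in the stabilized lists (log2 difference 0.32, SE 0.146, limma adjusted p = 0.483). Thbs1 CPM was 7.54 and 5.73 in acute ECs and 3165 to 7621 (median 4672) in WT cultures, far apart (log2 fold change 9.64, SE 0.790, edgeR adjusted p = 8.65e-05). Ccn1 had 2 gained regions. The stronger, chr3:145632664-145633465, lies 16.93 kb downstream and holds the AP-1 and TEAD motifs printed above, with fold enrichments of 11.7 and 9.05 in WT 1 and 2, 19.4 to 22.1 in WT 3 to 6, and 18.5 and 16.3 in the stabilized lists. The weaker, chr3:145703245-145703938, lies 53.57 kb upstream with 2 TEAD motifs and a median fold enrichment of 8.61. Ccn1 CPM was 117 and 183 in acute ECs and 1640 to 3293 (median 2003) in WT cultures (log2 fold change 3.99, SE 0.538, adjusted p = 0.000707).

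Genes of the AP-1 family themselves had gained regions nearby. Of 11 genes on this list, 6 had 14 gained regions, which were 12.0% of their merged intervals within 100 kb, against 7.93% for all protein-coding genes. Of the 6, 2 rose and 1 fell, with a median log2 fold change of 1.45. Of all 10 genes of the list that were tested, 2 rose and 1 fell. For this list and those below, the background is 13.5% higher and 10.2% lower over all genes tested. Gained regions were near 23.9% of all protein-coding genes and 30.3% of all genes tested. Jun, with 6 gained regions, fell (-2.41, SE 0.403, adjusted p = 0.00178). Its CPM was 316 and 1069 in acute ECs and 103 to 158 (median 128) in WT cultures, so that the groups did not overlap and the acute libraries differed from each other. The strongest of its regions had fold enrichments of 15.8 and 11.9 in WT 1 and 2 and 20.2 to 27.3 in WT 3 to 6. Mafk, a small Maf protein that pairs with AP-1 related factors, had 2 gained regions and rose (1.92, adjusted p = 0.00701), though not without acute 2 (adjusted p = 0.0503). Atf3 and Fosl2 were at 1.88 and 1.02 and did not pass, though Fosl2 did with the 36-cycle WT libraries alone (1.44, adjusted p = 0.0432).

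YAP/TEAD factors and targets were near gained regions in 18 of 24 genes, with 49 regions (12.9% of their intervals). Of the 18, 6 rose and 0 fell, with a median of 1.27. Of all 24 genes, 8 rose and 0 fell, with the same median. Gadd45a, a growth arrest gene, had 6 gained regions and rose (2.93, SE 0.465, adjusted p = 0.00140), from 8.12 and 4.41 CPM to 29.1 to 64.5 (median 49.1). The strongest of its regions, at 49.4 kb, holds the AP-1 motif printed above and had fold enrichments of 6.66 and 8.28 in WT 1 and 2, 13.4 to 15.2 in WT 3 to 6, and 9.46 and 12.6 in the stabilized lists. Myof, Amotl1 and Ptpn14, with 6, 4 and 4 gained regions, were at 1.45, -0.53 and 0.32 and did not pass, though Myof did with the length offset (2.05, adjusted p = 0.0383) and with the 36-cycle WT libraries alone (1.88, adjusted p = 0.00636).

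Actin and contractile genes had 20 gained regions at 9 of 20 genes (8.55% of their intervals), and 5 of the 9 rose and 0 fell, with a median of 2.03. Of all 20 genes on the list, 10 rose and 0 fell, with a median of 1.98. Tpm1, a tropomyosin, had 4 gained regions and rose (2.97, adjusted p = 0.0107), from 248 and 220 CPM to 881 to 3312. Cnn3, a calponin, had 2 and rose (1.82, adjusted p = 0.00843). With an offset for the length of the transcripts in each library, Cnn3 turned to -1.35 and 2 of the 9 genes rose and 2 fell. Without either acute library Tpm1 missed the threshold (adjusted p = 0.0637 and 0.0694), as Cnn3 did without acute 2 (0.0690). Actn1 and Actn4, the crosslinking alpha-actinins, had 4 each and were at 2.03 and -0.26 without passing, and Actn4 fell with the length offset (-1.56, adjusted p = 0.0399). Of the smooth muscle markers given above, Acta2 and Cnn1 had a higher and Myh11 a lower mean TPM in WT cultures than in acute ECs. Des was similar, and the part of smooth muscle cells in these values was not tested.

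Extracellular matrix genes had 44 gained regions at 18 of 25 genes (12.7% of their intervals), and 7 of the 18 rose and 1 fell, with a median of 4.12. Over the whole list of 25, 8 rose and 1 fell, with a median of 3.44. Tnc, the matrix glycoprotein tenascin C, had 6, with 1 at its start site at fold enrichments of 12.4 and 12.3 in WT 1 and 2, 13.0 to 15.7 in WT 3 to 6, and 13.0 and 13.2 in the stabilized lists. Tnc CPM was 0.168 and 0.746 in acute ECs and 420 to 2361 (median 584) in WT cultures (log2 fold change 11.28, SE 1.55, adjusted p = 0.000764). Col5a2, a fibrillar collagen chain, had 4 and rose (6.85, adjusted p = 0.00401). Timp3, a metalloproteinase inhibitor, had 4 and fell (-1.45, adjusted p = 0.00328), from 1471 and 1612 CPM to 482 to 714, and missed the threshold with wells summed (0.0872). Col5a1 had 4 and was at 5.04 with less than 5 TPM in a WT library.

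Integrin and focal adhesion genes had 43 gained regions at 16 of 20 genes (13.4% of their intervals), and 6 of the 16 rose and 3 fell, with a median of 1.80. Over the whole list of 20, 7 rose and 3 fell, with a median of 1.44. Itgav, the alpha subunit of integrins that bind vitronectin, had 4 and rose (2.54, adjusted p = 0.0116), from 112 and 66.7 CPM to 245 to 837 (median 463), but missed the threshold without acute 2 (0.0850). Tns1, the adhesion adaptor tensin 1, had 6 and fell (-1.73, adjusted p = 0.00832), from 1421 and 947 CPM to 237 to 601 (median 299), and missed it without acute 1 (0.0625) and with wells summed (0.0581). Itga2 was at 4.54 (adjusted p = 0.00971) but under the TPM minimum in the WT libraries, and Tns3, at 2.08, did not pass.

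Genes of sprouting, signaling and growth varied. Tip cell and angiogenic genes had 19 gained regions at 11 of 18 genes (6.21% of their intervals, below the 7.93% of all genes), and 7 rose and 2 fell, with a median of 5.23. On the whole list of 18, 8 rose and 3 fell, with a median of 2.60. Pgf, the placental growth factor, had 1 gained region at its start site (median fold enrichment 9.73) and 1 at 8.77 kb (16.3), and rose from 2.91 and 1.25 CPM to 636 to 1776 (log2 fold change 9.09, SE 0.848, adjusted p = 0.000142). Cytokine, chemokine and adhesion genes had 21 regions at 10 of 18 genes (13.3%), and 3 rose and 0 fell, with a median of 1.91. All 18 together had 3 that rose and 1 that fell, with the same median. Ccl2, a monocyte attractant with 4 gained regions, was at 0 in both acute libraries and at 41.0 to 404 CPM (median 322) in WT cultures. Csf1 and Bmp2, with 3 each, rose by log2 1.79 and 5.85 (adjusted p = 0.00288 and 0.00298). TGF-beta and growth factor genes had 22 regions at 12 of 20 genes (8.09%), and 1 rose and 0 fell, with a median of 1.30. All 20 together had 2 that rose and 0 that fell, with a median of 0.97. Tgfbr2, the type II receptor with 4 regions, was at -0.05 without passing, and at 1.32 (adjusted p = 0.0408) with the length offset. Cell cycle genes had 9 regions at 4 of 16 genes (9.57%), of which 6 lay near Myc. edgeR called 0 of these 4 genes, with a median of 2.93, and 0 of all 16, with a median of 4.65. Myc was at 3.77 (adjusted p = 0.00604) and Ccnb1 at 5.82 (adjusted p = 0.00388), but both were under the TPM minimum in a WT library. Ccnd1 and Mki67 were at 2.08 and 1.17 without passing, though Ccnd1 did with the 36-cycle WT libraries alone (2.50, adjusted p = 0.00573). Mesenchymal transition factors had 15 regions at 7 of 11 genes (14.2%), and 0 rose and 1, Zeb1, fell (-1.77, adjusted p = 0.00870), with a median of 3.31. The counts over all 11 were the same, with a median of 2.26. Runx1 and Twist2 were at 4.42 and 5.43 (adjusted p = 0.00246 and 0.0180) but under the TPM minimum in a WT library. Prrx1 was at -0.29 without passing. Zeb1, a repressor of epithelial genes, missed the threshold without acute 1 (adjusted p = 0.0729) and with wells summed (0.0536).

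Some BBB genes also had gained regions, and nearly all of these fell. Of 22 BBB genes, 10 had 15 gained regions, 5.30% of their intervals, and 15 of 22 had a lost region nearby, against 8.78% of all protein-coding genes. Of the 10, 0 rose and 9 fell, against 10.2% lower over all genes tested, with a median log2 fold change of -3.16, and 21 of all 22 fell. Slco1c1, a thyroid hormone transporter, had a gained region at 62.1 kb with a median fold enrichment of 20.6 and both motifs. Its CPM was 6056 and 4795 in acute ECs and 1.49 to 26.9 (median 2.43) in WT cultures (-9.15, SE 1.24, adjusted p = 0.000725). Abcb1a, which encodes P-glycoprotein, had 2 gained regions and fell (-4.02, adjusted p = 0.00106) from 4070 and 3896 CPM to 73.0 to 386. Slc2a1, the glucose transporter GLUT1, had 2 weak ones with median fold enrichments of 5.31 and 5.25 and fell (-2.07, adjusted p = 0.00210) from 5288 and 3978 CPM to 710 to 1417. Slc7a1, an amino acid transporter with 3, fell (-3.47, adjusted p = 0.0135), and missed the threshold without acute 1 (0.0704).

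Among genes of beta-catenin signaling and pan-endothelial genes, calls went in both directions, with more genes lower than higher. Beta-catenin targets and TCF/LEF genes had 15 gained regions at 8 of 16 genes (5.51% of their intervals), and of the 7 tested 1 rose and 3 fell, with a median of -1.20. Over the whole list, 1 of 14 genes tested rose and 8 fell, with a median of -3.31. Lef1, a TCF/LEF factor with 2 gained and 2 lost regions, fell from 489 and 538 CPM to 5.37 to 34.3 (-4.63, SE 0.611, adjusted p = 0.000649). Sp5, a target gene of Wnt signaling with 1 gained region, rose (5.91, adjusted p = 0.000464) from 0.404 and 0.329 CPM to 13.5 to 37.6. Pan-endothelial genes had 31 gained regions at 14 of 19 genes (8.73%), 14 of the 19 had a lost region, and of the 14 with gained regions 1 rose and 5 fell, with a median of -1.07, against 13.5% higher and 10.2% lower over all genes tested. Emcn, the sialomucin endomucin, had 3 gained regions, the strongest with a median fold enrichment of 21.8, and rose (2.83, adjusted p = 0.00427) from 259 and 306 CPM to 1213 to 3320. Ets1 fell (-1.25, adjusted p = 0.0114), but the call was lost without acute 1 (adjusted p = 0.0997), with wells summed (0.129) and with library size alone (-0.99, less than 2-fold). Cdh5, VE-cadherin, was at -0.65 without passing.

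Calls in transcripts near gained regions between stabilized and WT cultures depended on the libraries and terms in the fit. With all libraries and no term for isolation method, edgeR called 0% of all 12971 genes tested between 4 stabilized and 6 WT libraries. It so called 0 of 4010 genes with gained regions, of which 443 had an unadjusted p under 0.05, against 1422 of all 12971 genes. The median log2 difference of the genes with gained regions was 0.04 (all genes -0.07). DESeq2 called 10 of these genes higher and 0 lower, against 0.0803% and 0.0172% of all genes. With the 36-cycle libraries alone (4 WT, 4 stabilized) and a term for method, edgeR called 39 of 4000 such genes higher and 3 lower (0.975% and 0.075%), against 0.51% and 0.0773% of all genes. The 3 lower genes, named after their values were seen, were Ankrd1, a target of YAP, Fhl2, a LIM domain protein, and Id2, an inhibitor of helix-loop-helix factors. Ankrd1, with 2 gained regions, had a CPM of 293 and 206 in WT 1 and 2 against 77.2 and 84.7 in stabilized 1 and 2 (method A), and of 735 and 753 in WT 5 and 6 against 413 and 352 in stabilized 3 and 4 (method B). Its groups did not overlap within a method (log2 difference -1.30, SE 0.174, edgeR adjusted p = 0.00615), while Fhl2 and Id2 were at -1.15 and -1.21 (adjusted p = 0.0183 and 0.0230). Of the 39 higher genes, Pxdn, a peroxidase of the extracellular matrix, had the most gained regions, 5 (log2 difference 1.02, SE 0.0792, adjusted p = 0.00157). Within a method each group here had 2 wells of 1 experiment, so these p-values measure mainly the spread between wells, and WT 1 and 2 also differ from the stabilized cultures in genotype background. On simulated data, edgeR recovered 80.5% of 200 changes of 4-fold in this comparison without the term. None of the 72 named genes tested with the term was called. For Thbs1, CPM was 5750, 6052, 6310 and 5633 in the stabilized libraries, inside the range of WT cultures, and Ccn1 was at 1703, 1671, 2428 and 2169. Slco1c1 was at 11.5, 10.1, 4.43 and 5.76 CPM, and Lef1 at 17.1, 19.5, 24.6 and 20.9. These values lay within the range of the WT cultures and far below acute ECs for Slco1c1 and Lef1.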

How the data were processed

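The members and gene lists were chosen with earlier results of these data known, and the groupings of genes by distance and by lost regions were added after the data were seen. Per the labels and the study's methods, the authors aligned ATAC-seq reads to GRCm38 with HISAT2 2.1.0, removed duplicates with Picard, and used MACS2 2.1.2 for peaks, library by library. The deposited peak lists give fold enrichment (a ratio to the local background), −log10 p-values and −log10 q-values, and a score. The authors quantified RNA with Salmon 0.14.0 on GENCODE M21, and the deposited tables hold estimated counts, TPM and effective length per transcript. TPM shares of protein-coding genes ranged from 36.3% to 94.8% of a library, so TPM was used only for the minimum and the markers. Of 30 samples, 6 had no file and were not analysed here, and the GFP-negative libraries were not used here.

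Overlapping peaks were merged (1 bp or more), and per list the highest fold enrichment in an interval was kept. Sequence came from RefSeq for GRCm38.p6, and gene starts came from GENCODE M21 on the same build. Motifs were exact letters on both strands within 100 bp of the median summit, and an overlap of 2 motifs counted for both. Estimated counts were summed per gene, rounded and tested with edgeR 4.0.16 (quasi-likelihood, TMM, low-count filter, Benjamini-Hochberg) in R 4.3.3, with DESeq2 1.42.0 as an alternative. Log2 fold enrichment was tested with limma 3.58.1. Named genes were the 12 with the most gained regions, those nearest to the 10 strongest regions, Thbs1 and Ccn1, and up to 4 per list with the most regions. Sequences were shown for some genes of the middle sets and of 3 lists. On simulated data, 6.50% of 4-fold and 85.5% of 16-fold changes were recovered for culture against acute ECs. Alternatives were peak filters, overlap, windows, gene assignment, scaling, tool, transcript length, read length, a term for isolation method, summed wells, a replicate block and leaving out each library.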

Additional observations from a re-analysis of the deposited data

Results flagged for a closer look

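Single libraries stood apart from the rest of their group for 4 named genes near gained regions, out of 166 groups examined, where chance gives about 5% of groups. Stabilized library 2 was the highest of 4 for Ptpn14, a phosphatase that binds YAP (283.9 CPM, with the gap to the next library 0.852 of the whole range), for Tns1 (720.5 CPM, 0.953) and for Prrx1, a mesenchymal homeobox factor (20.67 CPM, 0.843). WT 2 was the highest of 6 for Timp3 (713.9 CPM, 0.638). None of these genes was called between stabilized and WT cultures, with or without a term for isolation method, and the causes were not tested.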

How the results depend on the processing

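The number of gained regions rested most on WT 2. Leaving out 1 library in turn gave 10257 to 20229 regions, the highest without WT 2, and requiring peaks to cover at least 50% of an interval gave 6247. The share in both stabilized lists was 96.7% to 99.1% over the same libraries, lowest without WT 2. The promoter share was 4.85% within 500 bp and 10.2% within 2 kb. With windows of 50 bp, 250 bp and the whole interval, AP-1 was found in 32.0%, 46.1% and 49.4% of gained regions and TEAD in 14.6%, 36.3% and 42.7%, since longer windows hold more letters.

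For transcripts in WT cultures against acute ECs, 285 genes with gained regions rose and 167 fell when regions were assigned within 10 kb, 987 and 883 with no TPM minimum, and 350 rose and 410 fell when the region had to overlap the gene or its promoter. With wells summed, 305 fell. Leaving out 1 library gave 418 to 582 higher and 373 to 512 lower. Library size alone gave 659 higher and 430 lower, with the median of all genes at 0.30. For stabilized against WT cultures, 10 genes with gained regions were higher with DESeq2, and 39 higher and 3 lower with 36-cycle libraries and a term for method, while leaving out any library gave 0. In peak height, 0 gained regions were lower with −log10 q in place of fold enrichment, 2 with all 6 WT lists, and 0 without any 1 list.

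Replicate numbers were not taken to pair the samples, since not every pair of libraries passed r of 0.1, although libraries 1 and 2 of both culture groups share isolation method A. Same-numbered libraries deviated together with r of -0.046 and 0.030 for WT against acute ECs and 0.558, 0.575, 0.052 and 0.114 for stabilized against WT. With a replicate block, 608 rose and 641 fell in WT cultures against acute ECs, and 75 were higher and 8 lower in stabilized cultures. Under it Palld was at 0.67 (adjusted p = 0.166) and Ets1 at -0.88 (0.0714), while Actn4 fell (-1.30, 0.0232).

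Of 73 named genes tested, 29 were called and 17 of these under every alternative. Of 1094 values, 1029 stayed on their side of the threshold, 26 lost and 37 gained a call, and 2 turned with the offset for transcript length, Cnn3 to -1.35 and Tgfbr2 to 1.32. The causes were not tested. ATAC-seq depth is unknown, so a region without a peak in an acute list may hold reads.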
